A study of Homo sapiens with 9 samples.

Results

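The 10 transcripts described here encode regulators of the BCL2 family, namely BCL2, BCL2L1, MCL1 and BCL2A1 (survival members), BAX and BAK1 (effectors), and BBC3, PMAIP1, BMF and BCL2L11 (BH3-only members). They were picked out by gene symbol, by a rule that applies no threshold to the measured values but was set with earlier results of these data known, and are 10 of the 58735 genes in the files. They were followed in MDA-MB-231, a long-established TNBC (triple-negative breast cancer) cell line of mesenchymal character, in which RNA was sequenced from cells given the vehicle DMSO, from cells that had survived erastin (erastin-R) and from cells that had survived RSL3 (RSL3-R). Erastin blocks cystine uptake and RSL3 inhibits GPX4, and each induces ferroptosis, an iron-dependent death through lipid peroxidation. Each condition had 3 libraries, and doses and times for these libraries were not given in the labels. The groups called resistant here are survivors of the drugs, and the resistance of the sequenced cells was not measured in these data. In survivors, selection of cells and a response to the drug cannot be told apart. The labels do not say whether the 3 libraries of a condition came from separate cultures. The p values therefore measure the spread between these libraries, which may be technical.

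BCL2 family proteins decide whether the outer mitochondrial membrane is opened in apoptosis. The effectors BAX and BAK form the openings, the survival proteins hold effectors and BH3-only proteins in check, and BH3-only proteins carry stress signals by binding survival proteins or by activating effectors. Much of this regulation is at the protein level, through phosphorylation, degradation and splicing, none of which was measured by counts per gene.

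Total counts were between 15405102 and 17273464 per library. The common dispersion of the 16188 genes tested gave a coefficient of variation between replicates of 8.56%, which leaves out counting error. Values for a single gene across libraries are given as CPM (counts scaled to TMM-normalized library size). The line's markers VIM, CD44, ZEB1 and AXL were high in all 9 libraries, ESR1 had at most 12 counts and PGR at most 2, while SPARC was low (33 to 73 counts) and ERBB2 was not absent (927 to 1598 counts). Luminal markers, mostly KRT8, summed to 308 to 318 CPM in vehicle, 150 to 173 CPM in erastin-R and 180 to 195 CPM in RSL3-R cells (5 of 6 above 3 counts in each condition). Leukocyte markers summed to 3.83 to 4.69, 1.46 to 2.50 and 4.10 to 5.09 CPM, and endothelial markers, almost all PECAM1, to 9.68 to 11.1, 1.65 to 2.38 and 11.7 to 14.2 CPM. Fibroblast markers summed to 7.77 to 9.90, 7.98 to 10.2 and 9.48 to 12.2 CPM, and CD3E had at most 4 counts. One erastin-R library, replicate 1, stood apart from its group on the third principal component (37.6 against -15.3 and -13.5) and in its share of mitochondrial counts (7.95% against 5.55% and 5.84%). Calls of members that changed without it are given both ways, and for the lists of further genes the counts without it are given beside those with it, while the part of these marker and library differences in the results was not tested.

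A gene passed the test at an adjusted p under 0.05 from edgeR's quasi-likelihood test with Benjamini-Hochberg adjustment over 16188 genes, written below as edgeR adjusted p. It was differentially expressed if its log2 fold change was also at least 1 in size. Of the 10 members, 9 passed the filter on low counts, and BCL2A1 did not. In erastin-R cells 4 of the 9 tested members differed from vehicle, with BBC3, PMAIP1 and MCL1 higher and BMF lower, where 54.0% of all genes tested passed. In RSL3-R cells 7 of 9 differed from vehicle, against 48.7% of all genes, and these were BBC3, PMAIP1, BMF and MCL1, which were higher, and BAK1, BAX and BCL2, which were lower. Between RSL3-R and erastin-R cells 4 of 9 differed, against 49.2% of all genes, with BMF higher and BAK1, MCL1 and BCL2L11 lower in RSL3-R. With so many genes past the test, these counts set no bar, and the members are described below by size and by library. The comparisons with vehicle share the 3 vehicle libraries and are not independent of each other.

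At the stricter threshold, 2 members were differentially expressed against vehicle in erastin-R cells, where 13.4% of all genes were. They were BBC3, which was higher (6.70% of all genes were), and BMF, which was lower (6.66% of all genes were). RSL3-R cells gave the same 2 genes, both higher, where 10.1% of all genes were differentially expressed, 6.02% higher and 4.08% lower. Between RSL3-R and erastin-R cells BMF was higher, where 10.3% of all genes were differentially expressed, 6.86% higher and 3.48% lower. The median log2 fold change of the 9 members was 0.06 for erastin-R and 0.11 for RSL3-R against vehicle and -0.27 between RSL3-R and erastin-R, and over all genes tested it was -0.00418, 0.00523 and -0.0237. By role, the medians against vehicle were 0.43 and 0.92 for the 4 BH3-only members in erastin-R and RSL3-R cells. The effectors had medians of -0.02 and -0.44, and the 3 tested survival members -0.03 and 0.11. The larger shifts were thus in the BH3-only members, and these did not all go the same way.

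**Figure D1:**
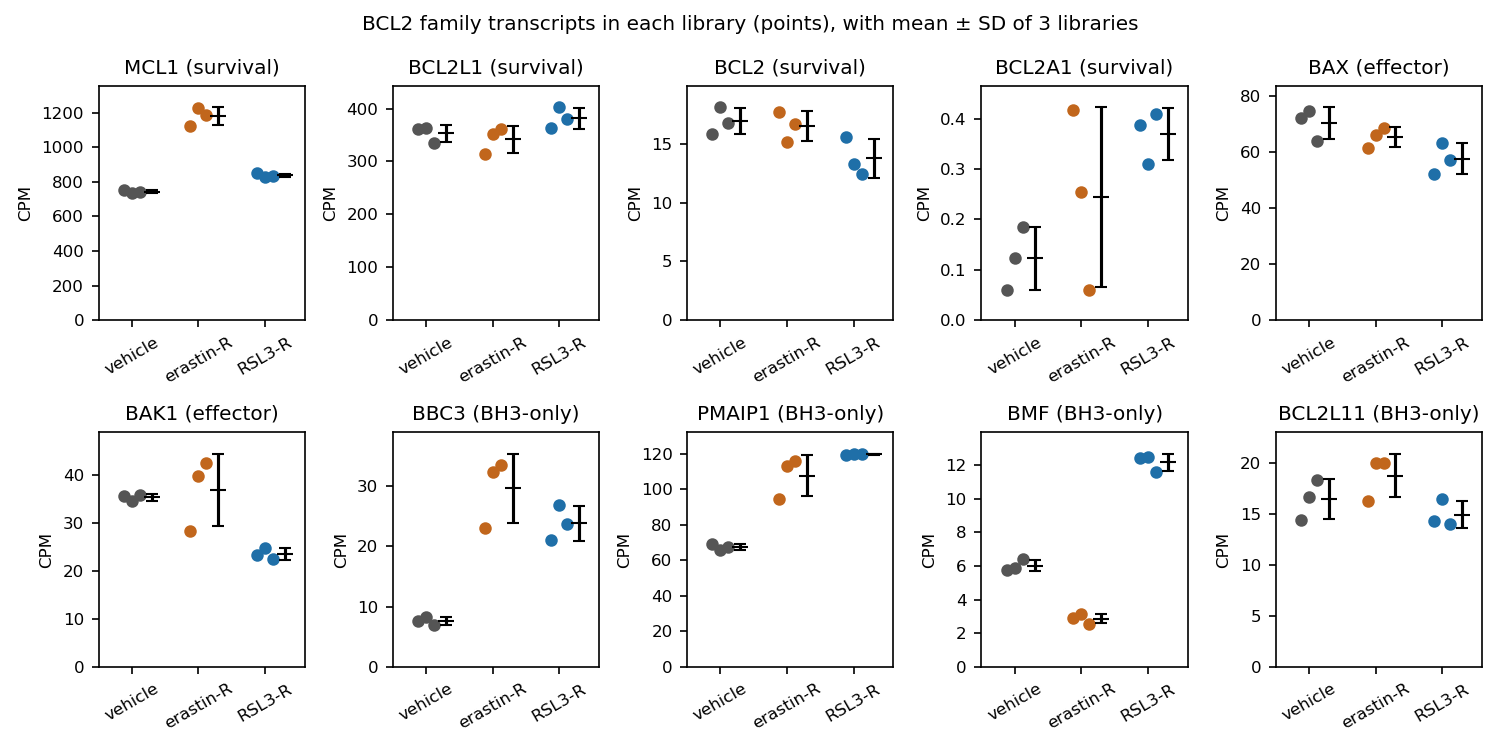
Level of each of the 10 transcripts in CPM (vertical axis, from 0) in the 3 libraries of each condition (points), with the mean ± SD of the 3 libraries beside them. BBC3 and PMAIP1 lay above the vehicle libraries in all 6 libraries of resistant cells, whereas BMF lay below vehicle in erastin-R and above it in RSL3-R cells.

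BMF, a BH3-only protein held on the cytoskeleton through dynein light chain and released by stress, was the member that moved in opposite directions. The gene (ENSG00000104081) lies on chromosome 15 of GRCh38 from 40087890 to 40108892 on the minus strand. Vehicle libraries had 5.78, 5.87 and 6.42 CPM of BMF, erastin-R libraries 2.92, 3.12 and 2.55 CPM, and RSL3-R libraries 12.4, 12.5 and 11.6 CPM. The 3 conditions did not overlap, with erastin-R lowest and RSL3-R highest. In bulk RNA, a change in the share of cells that express a gene and a change in its RNA per cell cannot be told apart. BMF fell by 1.07 on the log2 scale in erastin-R cells, 2.10-fold lower than vehicle (SE 0.15, edgeR adjusted p = 3.16e-05). In RSL3-R cells it rose by 1.01 on the log2 scale, 2.02-fold (SE 0.13, edgeR adjusted p = 1.58e-05). The direct comparison gave 4.24-fold more BMF in RSL3-R than in erastin-R cells (log2 fold change 2.09, SE 0.14, edgeR adjusted p = 6.56e-08). BMF is a weakly expressed gene, with 95 to 104 counts in vehicle, 42 to 49 in erastin-R and 193 to 201 in RSL3-R libraries. Its changes against vehicle lay close to the threshold of 1. Leaving out erastin-R replicate 3 gave -0.99 in erastin-R cells, and leaving out vehicle replicate 1, vehicle replicate 2 or RSL3-R replicate 2 gave 0.98, 0.99 and 0.99 in RSL3-R cells, each still past the test.

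BBC3 encodes PUMA, a BH3-only protein that binds all the main survival proteins and is known as a target of stress-induced transcription factors. The gene (ENSG00000105327) lies on chromosome 19 from 47220822 to 47232766 on the minus strand. Its level was 7.63, 8.21 and 6.97 CPM in the vehicle libraries, 23.0, 32.4 and 33.5 CPM in erastin-R and 21.1, 26.9 and 23.7 CPM in RSL3-R. All 6 libraries of resistant cells were above every vehicle library, and erastin-R replicate 1 lay within the range of RSL3-R. BBC3 rose 3.90-fold in erastin-R cells (log2 fold change 1.96, SE 0.15, edgeR adjusted p = 1.57e-07). The rise in RSL3-R cells was 3.14-fold (log2 fold change 1.65, SE 0.15, edgeR adjusted p = 9.51e-07). These were the largest increases over vehicle among the 9 tested members. RSL3-R and erastin-R cells did not differ past the threshold in BBC3 (log2 fold change -0.31, 95% interval -0.60 to -0.02, edgeR adjusted p = 0.0727). The difference passed in 3 of 16 alternative settings. Without erastin-R replicate 1 it was -0.47 with an edgeR adjusted p of 0.000274.

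PMAIP1 encodes NOXA, a BH3-only protein that binds mainly MCL1. The gene (ENSG00000141682) lies on chromosome 18 from 59899948 to 59904306 on the plus strand. PMAIP1 had 69.5, 66.0 and 67.5 CPM in the vehicle libraries, 94.6, 113 and 116 CPM in erastin-R and 119, 120.1 and 119.8 CPM in RSL3-R. Again every library of resistant cells was above vehicle, with little spread among the RSL3-R libraries. PMAIP1 rose 1.59-fold in erastin-R cells (log2 fold change 0.67, SE 0.07, edgeR adjusted p = 4.87e-06). In RSL3-R cells the increase was 1.77-fold (log2 fold change 0.82, SE 0.07, edgeR adjusted p = 8.02e-07). The RSL3-R libraries lay above those of erastin-R, and the difference did not pass the test (log2 fold change 0.15, 95% interval -0.01 to 0.31, edgeR adjusted p = 0.103). Without erastin-R replicate 1 it was 0.06.

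BCL2L11 encodes BIM, which binds all the main survival proteins and can activate BAX and BAK directly. The gene (ENSG00000153094) lies on chromosome 2 from 111119378 to 111168447 on the plus strand. Its level was 14.4, 16.7 and 18.3 CPM in vehicle, 16.3, 19.98 and 20.1 CPM in erastin-R and 14.3, 16.5 and 14.03 CPM in RSL3-R libraries. The conditions overlapped, and neither comparison with vehicle passed the test. Erastin-R cells had a log2 fold change of 0.19 (95% interval -0.07 to 0.45, edgeR adjusted p = 0.201), and RSL3-R cells one of -0.14 (95% interval -0.40 to 0.13, edgeR adjusted p = 0.376). Changes of BCL2L11 as large as those of BBC3 lie outside these intervals. BCL2L11 was lower in RSL3-R than in erastin-R cells (log2 fold change -0.33, SE 0.12, edgeR adjusted p = 0.0378), a call that held in 8 of 16 alternative settings. Without erastin-R replicate 1, the log2 fold change against vehicle in erastin-R cells was 0.28 and passed the test (edgeR adjusted p = 0.034). Part of the exon sequence of BCL2L11, 10.9% of its bases, is shared with MIR4435-2HG on the opposite strand, which had 1071 to 1564 counts per library. Whether counting used strand was not given in the sources used here, so the split of reads between these genes is uncertain.

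The proximal promoters of the 4 BH3-only genes are shown because these genes shared a role but not a direction of change. Each sequence holds the 250 bases before the start of the RNA in RefSeq's annotation of GRCh38.p14, on the transcribed gene's own strand. A set of 4 short motifs was searched on both strands after the sequences had been seen: the cAMP response element core TGACGT, the composite ATF4 and C/EBP element TGATGNAA, the E-box CACGTG and the FOXO element GTAAACA. Capitals mark a match to any of them.
BBC3, chr19:47232668-47232917, minus strand: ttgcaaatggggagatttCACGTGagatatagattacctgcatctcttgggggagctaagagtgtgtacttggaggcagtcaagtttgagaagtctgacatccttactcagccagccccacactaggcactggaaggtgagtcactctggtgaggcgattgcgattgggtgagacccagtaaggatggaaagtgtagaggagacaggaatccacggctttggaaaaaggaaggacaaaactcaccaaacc
PMAIP1, chr18:59899746-59899995, plus strand: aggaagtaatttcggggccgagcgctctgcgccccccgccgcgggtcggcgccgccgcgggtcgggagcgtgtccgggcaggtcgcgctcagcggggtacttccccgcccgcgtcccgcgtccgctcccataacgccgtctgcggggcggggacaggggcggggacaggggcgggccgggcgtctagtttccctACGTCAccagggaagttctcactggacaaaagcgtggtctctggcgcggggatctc
BMF, chr15:40108880-40109129, minus strand: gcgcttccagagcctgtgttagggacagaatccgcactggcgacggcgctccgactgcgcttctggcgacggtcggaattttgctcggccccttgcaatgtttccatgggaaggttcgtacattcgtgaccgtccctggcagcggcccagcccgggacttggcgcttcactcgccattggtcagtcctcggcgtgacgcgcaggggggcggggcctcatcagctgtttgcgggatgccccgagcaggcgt
BCL2L11, chr2:111120664-111120913, plus strand: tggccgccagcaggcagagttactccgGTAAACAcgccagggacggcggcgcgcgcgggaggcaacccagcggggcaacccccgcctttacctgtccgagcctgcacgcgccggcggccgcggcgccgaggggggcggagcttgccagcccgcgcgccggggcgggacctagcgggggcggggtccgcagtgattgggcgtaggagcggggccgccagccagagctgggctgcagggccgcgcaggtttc
BBC3 had an E-box that began 232 bases before the start, and PMAIP1 had the reverse complement of the response element core 56 bases before it. BCL2L11 held a FOXO element 223 bases before the start. The BMF window had none of the 4 motifs, nor did that of its second start, which lies further downstream. In windows of 300 bases (250 before and 50 after the start) of 35116 promoters, TGACGT occurred in 7.98%, TGATGNAA in 3.62%, CACGTG in 7.26% and GTAAACA in 3.42%. Windows were found for 9 of the 10 members, all except MCL1. Among the remaining members, BAX had 4 E-boxes, at 138, 93, 45 and 14 bases before its start, BCL2A1 had the composite element 63 bases before its start, and BAK1, BCL2 and BCL2L1 had no match. A match describes letters in a window, and binding was not measured.

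The effectors went down in RSL3-R cells and did not pass the test in erastin-R cells. BAK1 (ENSG00000030110), whose protein resides on the mitochondrial outer membrane, lies on chromosome 6 from 33572547 to 33580293 on the minus strand. It was at 35.7, 34.5 and 35.8 CPM in vehicle, 28.4, 39.9 and 42.6 CPM in erastin-R and 23.3, 24.8 and 22.4 CPM in RSL3-R libraries. The RSL3-R libraries were below all others, whereas the erastin-R libraries lay on both sides of vehicle. BAK1 fell by 0.59 on the log2 scale in RSL3-R cells, 1.504-fold lower than vehicle (SE 0.12, edgeR adjusted p = 0.0013). It was also 1.57-fold lower in RSL3-R than in erastin-R cells (log2 fold change -0.65, SE 0.12, edgeR adjusted p = 0.000602). Against vehicle, erastin-R cells gave 0.06 (95% interval -0.19 to 0.32, edgeR adjusted p = 0.679). Without replicate 1, the erastin-R value was 0.22 and passed the test (edgeR adjusted p = 0.0154). Of the 50-base stretches of BAK1 transcripts, 14% also occur in its pseudogene BAK1P1 or in GGNBP1, so some of its reads may not have been unique.

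BAX (ENSG00000087088) encodes the effector that moves from the cytosol to mitochondria and lies on chromosome 19 from 48954815 to 48961798 on the plus strand. Vehicle libraries had 72.4, 74.9 and 64.2 CPM of BAX, erastin-R libraries 61.5, 66.3 and 68.6 CPM and RSL3-R libraries 52.4, 63.5 and 57.3 CPM. The RSL3-R libraries lay just below the lowest vehicle library and overlapped with erastin-R. BAX fell by 0.29 on the log2 scale in RSL3-R cells (SE 0.08, edgeR adjusted p = 0.0119), and this call was lost in 3 of 16 alternative settings (edgeR adjusted p up to 0.121). In erastin-R cells the log2 fold change was -0.11 (95% interval -0.29 to 0.07, edgeR adjusted p = 0.302). RSL3-R against erastin-R gave -0.18 (95% interval -0.36 to 0.00055, edgeR adjusted p = 0.0914), and without erastin-R replicate 1 -0.23 (edgeR adjusted p = 0.011).

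**Figure D2:**
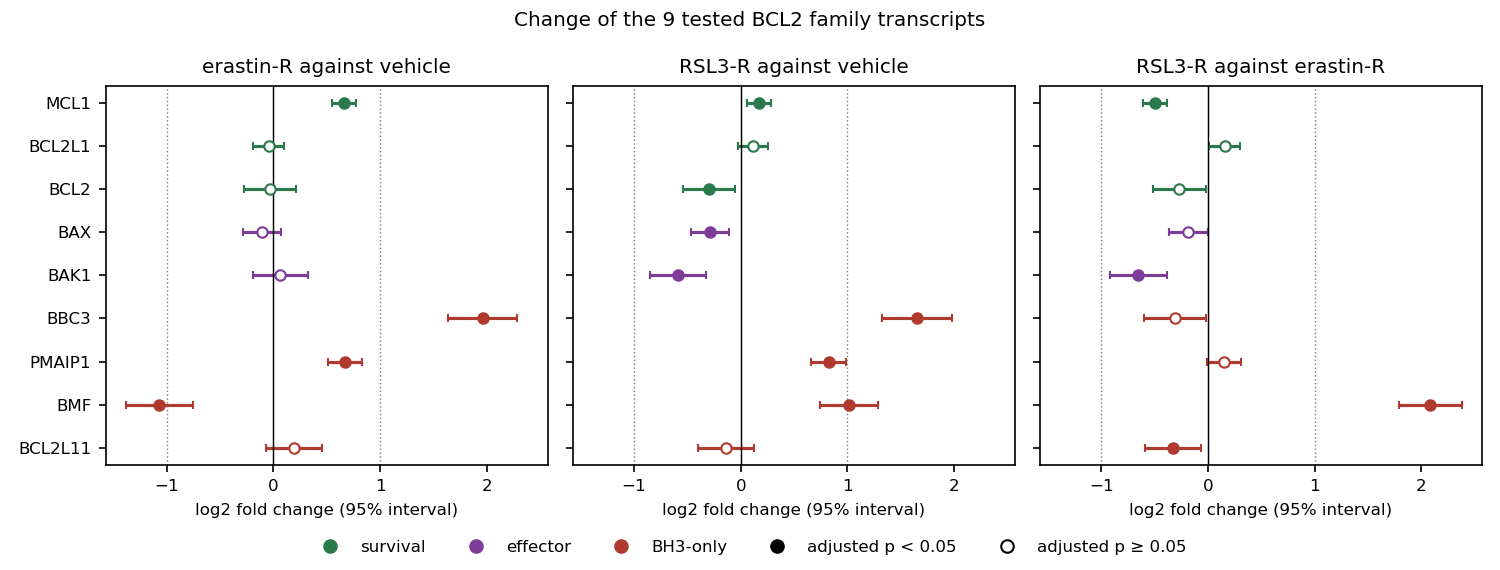
Log2 fold change (horizontal axis) with its 95% interval for the 9 tested members in the 3 comparisons, coloured by role, with filled points at an edgeR adjusted p under 0.05 and dotted lines at a log2 fold change of 1 either way. BMF is the member whose interval lies below 0 for erastin-R and above 0 for RSL3-R against vehicle, and both effectors lie below 0 for RSL3-R against vehicle.

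Among the survival members MCL1 changed most, and it did so in erastin-R cells. MCL1 is a short-lived protein that binds NOXA, BIM and BAK, and its gene (ENSG00000143384) lies on chromosome 1 from 150574551 to 150579738 on the minus strand. The libraries had 755, 734 and 742 CPM of MCL1 in vehicle, 1124, 1226 and 1188 CPM in erastin-R and 848, 830.4 and 832 CPM in RSL3-R cells. The 3 conditions did not overlap, with vehicle lowest and erastin-R highest. MCL1 rose 1.59-fold in erastin-R cells (log2 fold change 0.67, SE 0.05, edgeR adjusted p = 1.85e-07). Its rise in RSL3-R cells was 1.13-fold (log2 fold change 0.17, SE 0.05, edgeR adjusted p = 0.0146), and without vehicle replicate 2 it did not pass (edgeR adjusted p = 0.0685). RSL3-R cells had 1.41-fold less MCL1 than erastin-R cells (log2 fold change -0.49, SE 0.05, edgeR adjusted p = 4.59e-06). The counts do not separate the long, protective isoform of MCL1 from the short ones.

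BCL2L1, whose long product BCL-XL protects and whose short product BCL-XS does not, did not pass the test in any of the 3 comparisons. The gene (ENSG00000171552) lies on chromosome 20 from 31664452 to 31723989 on the minus strand. It had 361, 363 and 335 CPM in vehicle, 313, 353 and 361 CPM in erastin-R and 363, 402 and 380.2 CPM in RSL3-R libraries. Vehicle overlapped with each of the resistant groups, and erastin-R replicate 1 was the lowest library. Its log2 fold change against vehicle was -0.04 for erastin-R (95% interval -0.19 to 0.10, edgeR adjusted p = 0.593) and 0.11 in RSL3-R cells (95% interval -0.03 to 0.26, edgeR adjusted p = 0.178). Without erastin-R replicate 1, the latter passed at nearly the same size (0.11, edgeR adjusted p = 0.0283). That library is in neither group of this comparison and enters only through the model shared by all libraries. RSL3-R against erastin-R gave 0.16 (95% interval 0.01 to 0.30, edgeR adjusted p = 0.0637). ABALON, on the opposite strand, overlaps 43.0% of the exon bases of BCL2L1 and had 106 to 184 counts, against 5260 to 6505 counts of BCL2L1. Since the strand setting was not given, the low count of ABALON does not settle how reads over the shared bases were assigned. The level of BCL2L1 per length, and the shares that rest on it, are uncertain to that extent.

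BCL2 (ENSG00000171791), the founding survival gene, lies on chromosome 18 from 63123346 to 63320128 on the minus strand. Its level was 15.9, 18.1 and 16.8 CPM in vehicle, 17.7, 15.1 and 16.7 CPM in erastin-R and 15.6, 13.2 and 12.4 CPM in RSL3-R libraries. The RSL3-R libraries were just below vehicle, and erastin-R overlapped with both. BCL2 fell by 0.30 on the log2 scale in RSL3-R cells (SE 0.11, edgeR adjusted p = 0.0422). This call held in 6 of 16 alternative settings, with adjusted p from 0.0161 to 0.252 over edgeR, DESeq2 and limma fits. In erastin-R cells BCL2 gave -0.03 (95% interval -0.27 to 0.21, edgeR adjusted p = 0.823), and RSL3-R against erastin-R -0.27 (95% interval -0.51 to -0.02, edgeR adjusted p = 0.0671).

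BCL2A1 (ENSG00000140379), a survival gene known from blood cells and as a target of NF-κB, lies on chromosome 15 from 79960889 to 79971446 on the minus strand and was at the limit of detection. Vehicle libraries had 1, 2 and 3 counts, erastin-R libraries 7, 4 and 1, and RSL3-R libraries 6, 5 and 7. The RSL3-R libraries were above vehicle, but on so few counts that no fold is given. With no filter on low counts, the edgeR adjusted p was 0.541 for erastin-R and 0.237 for RSL3-R against vehicle, and 0.653 between the resistant groups. A difference in BCL2A1 was not detectable at this depth.

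Levels of different genes were compared as CPM per kb, the CPM divided by the gene length in the files. The lengths were not corrected for exon bases shared with other genes, such as those of BCL2L1 with ABALON. In vehicle cells MCL1 was the most abundant member at 170.1 ± 2.40 CPM per kb (SD, n = 3), followed by BCL2L1 at 107 ± 4.64. PMAIP1 at 30.3 ± 0.770, BAX at 27.3 ± 2.18 and BAK1 at 16.0 ± 0.322 CPM per kb came next. The remaining members were far lower, with BCL2L11 at 2.47 ± 0.298, BBC3 at 2.39 ± 0.196, BCL2 at 1.44 ± 0.0956, BMF at 1.11 ± 0.0630 and BCL2A1 at 0.113 ± 0.0576 CPM per kb. BCL2L11 and BBC3 overlapped in vehicle cells, and no other neighbours in this order did. The first 5 places were the same in erastin-R and RSL3-R cells. In erastin-R cells BBC3 stood sixth, at 9.33 ± 1.81 CPM per kb, ahead of BCL2L11 at 2.82 ± 0.321. In RSL3-R cells BBC3 stood there too, at 7.51 ± 0.918, and BMF at 2.23 ± 0.0950 CPM per kb overlapped with BCL2L11 at 2.24 ± 0.201 and stood ahead of BCL2 at 1.17 ± 0.141. BMF was below BCL2 in the other conditions, at 0.526 ± 0.0525 CPM per kb in erastin-R cells.

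Summed over the 10 members, the level per length was 358 ± 7.15 CPM per kb in vehicle, 478 ± 30.2 among erastin-R and 407 ± 7.84 among RSL3-R libraries (SD, n = 3 each). The 4 BH3-only members made up 10.1% ± 0.228 of it in vehicle, 12.7% ± 0.761 among erastin-R and 16.1% ± 0.0304 among RSL3-R libraries. The 3 conditions did not overlap, with ranges of 9.93% to 10.4%, 11.9% to 13.3% and 16.1% to 16.2%. Effectors made up 12.1% ± 0.341 in vehicle and less in the resistant groups, at 8.78% ± 0.500 among erastin-R and 8.09% ± 0.464 among RSL3-R libraries. Among erastin-R libraries this went with a larger sum and not with a called change of the effectors, whose levels per length were 27.3 and 25.3 CPM per kb for BAX and 16.0 and 16.7 CPM per kb for BAK1 in vehicle and erastin-R cells. Survival members held 77.8% ± 0.115, 78.5% ± 1.25 and 75.8% ± 0.468 of the sum. The similar survival share in erastin-R cells had a different make-up, since MCL1 held 56.5% ± 1.52 of the sum there against 47.6% ± 0.896 in vehicle, and BCL2L1 21.6% ± 0.385 against 29.8% ± 0.786. The level of MCL1 was 269.8 CPM per kb in erastin-R and 170.1 in vehicle cells, and that of BCL2L1 was 103 and 107, with no called change. In RSL3-R cells MCL1 held 47.1% ± 1.37 and BCL2L1 28.3% ± 0.947. Within the sum of these 4 BH3-only members, PMAIP1 was the bulk in every condition, at 83.5% ± 1.03, 79.3% ± 1.09 and 81.7% ± 1.34. BBC3 held 6.60% ± 0.602 of the BH3-only sum in vehicle, 15.2% ± 1.24 among erastin-R and 11.4% ± 1.18 among RSL3-R libraries, while BMF held 3.05% ± 0.177, 0.873% ± 0.154 and 3.41% ± 0.146. The sums leave out BAD and BID, BH3-only genes outside the 10 members, added here after their values were seen. BAD was at 12.2, 11.5 and 8.67 CPM per kb in vehicle, erastin-R and RSL3-R cells, and BID at 6.26, 6.57 and 7.11. All shares by role therefore hold for the 10 members only. These shares are of transcripts per length and say nothing of protein amounts.

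**Figure D3:**
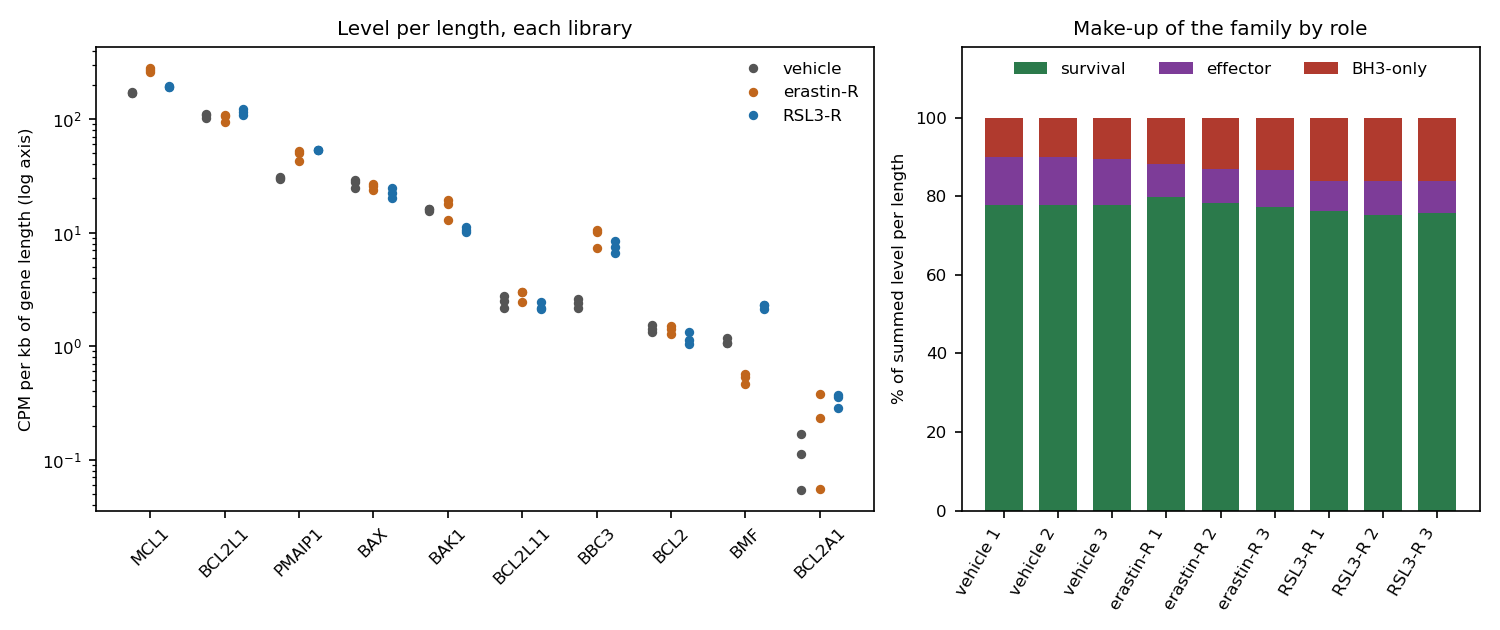
Left, CPM per kb of gene length (log axis) of the 10 members in each of the 9 libraries, and right, the percent of their summed level per length held by survival, effector and BH3-only members in each library. MCL1 and BCL2L1 are highest in every library, and the BH3-only share goes from about 10.1% in vehicle to 16.1% in RSL3-R cells.

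Further genes of the pathway were followed in lists counted whole, and the genes named are differentially expressed ones, at most 4 for a list and comparison unless stated. The erastin-R values of BNIP3, APAF1, BIRC5 and FAS, which were below that threshold, were added after they were seen. The same holds for XIAP, BIRC2, BIRC3, BIRC6, TNFRSF10A, TNFRSF10B and TNFRSF1A. Counts without erastin-R replicate 1 are an alternative added after the data were seen. RSL3-R against vehicle holds no erastin-R library. There, leaving that library out acts only through what the model shares between groups, such as the estimated spread. Of all genes tested, 27.1% were higher and 26.8% lower in erastin-R against vehicle, 23.8% and 24.9% in RSL3-R against vehicle, and 22.3% and 26.9% in RSL3-R against erastin-R, and the counts of each list stand beside these shares. Of 13 other BCL2 family genes, 8 were expressed enough to be tested. In erastin-R cells 1 was higher than vehicle and 3 were lower (median log2 fold change -0.02), and without replicate 1 there were 3 of each. In RSL3-R cells 1 was higher and 5 lower (median -0.32), or 1 and 6 without that erastin-R library. The gene past the threshold in RSL3-R cells was BNIP3, a mitophagy receptor induced by hypoxia, which fell from 327 ± 4.68 to 163 ± 3.31 CPM (log2 fold change -1.004, SE 0.05, edgeR adjusted p = 4.48e-09). BNIP3 was also lower than vehicle in erastin-R cells (log2 fold change -0.71, edgeR adjusted p = 1.39e-07). Between RSL3-R and erastin-R cells 1 was higher and 4 lower with or without that library, among them BCL2L12 (log2 fold change -1.10, SE 0.13, edgeR adjusted p = 9.52e-06).

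Downstream of the BCL2 proteins lie the apoptosome, the caspases and their inhibitors, of which 18 genes were tested. In erastin-R cells 4 were higher and 7 lower than vehicle (median log2 fold change -0.11), and 5 and 8 without replicate 1. In RSL3-R cells 2 were higher and 9 lower (median -0.29), and 2 and 13 without erastin-R replicate 1. APAF1, the scaffold of the apoptosome, fell from 72.9 ± 2.18 to 29.01 ± 1.34 CPM (log2 fold change -1.33, SE 0.07, edgeR adjusted p = 6.07e-09). BIRC5, which encodes the mitotic and caspase-related protein survivin, fell from 153 ± 7.26 to 51.8 ± 2.69 CPM (log2 fold change -1.57, SE 0.08, edgeR adjusted p = 2.01e-09). APAF1 and BIRC5 were also lower than vehicle in erastin-R cells (log2 fold changes -0.35 and -0.56, edgeR adjusted p = 0.000899 and 2.4e-05). The genes that fell in RSL3-R cells thus took in a scaffold needed for caspase activation as well as BIRC5 of the inhibitor family. Other inhibitors did not fall with BIRC5. The 2 higher genes were the inhibitors XIAP (log2 fold change 0.57, edgeR adjusted p = 1.47e-05) and BIRC6 (0.41, edgeR adjusted p = 0.000108), and BIRC2 and BIRC3 did not pass the test. RSL3-R cells had 2 genes higher and 10 lower than erastin-R cells (median -0.28), or 3 and 10 without that replicate. ENDOG at -1.42 (SE 0.29, edgeR adjusted p = 0.00113) and BIRC5 at -1.003 (edgeR adjusted p = 2.84e-07) were differentially expressed. ENDOG was at 5.42, 14.6 and 11.7 CPM in erastin-R and 3.61, 3.05 and 5.08 CPM in RSL3-R libraries, so erastin-R replicate 1 lay close to RSL3-R.

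The death receptor branch, which reaches the BCL2 family through caspase-8 and BID, had 10 genes tested. In erastin-R cells 2 were higher and 6 lower than vehicle (median log2 fold change -0.41), and none was differentially expressed. Without replicate 1 there were 3 and 6, with 1 of the lower genes differentially expressed. In RSL3-R cells 3 were higher and 3 lower (median -0.01), or 3 and 4 without the erastin-R library, and the receptor gene FAS fell from 5.02 ± 0.830 to 1.81 ± 0.158 CPM (log2 fold change -1.47, SE 0.20, edgeR adjusted p = 3.85e-05). FAS was also lower than vehicle in erastin-R cells (log2 fold change -0.52, edgeR adjusted p = 0.0288). It was weakly expressed, with 68 to 95 counts in vehicle and 27 to 32 in RSL3-R libraries. The receptor gene TNFRSF10B rose from 192 CPM in vehicle to 241 in erastin-R and 313 CPM in RSL3-R cells (edgeR adjusted p = 0.000263 and 2.65e-07). The receptor genes TNFRSF10A and TNFRSF1A were lower than vehicle in erastin-R cells (log2 fold changes -0.49 and -0.33) and did not pass in RSL3-R cells. Against erastin-R cells, RSL3-R cells had 7 genes higher and 1 lower (median 0.31), and 7 and 3 without erastin-R replicate 1.

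Of 15 genes for transcription factors and cofactors known to act on BH3-only genes, 10 were higher and 4 lower than vehicle in erastin-R cells, with or without replicate 1 (median log2 fold change 0.50). In RSL3-R cells 9 were higher and 3 lower (median 0.34), or 9 and 4 without erastin-R replicate 1. TRIB3, a cofactor induced with the integrated stress response, rose from 31.2 ± 2.54 CPM in vehicle to 106 ± 15.8 in erastin-R (log2 fold change 1.76, edgeR adjusted p = 1.08e-08) and 223 ± 4.66 CPM in RSL3-R cells (2.84, edgeR adjusted p = 1.28e-10). ATF3, a stress-induced factor of the ATF family, rose from 5.13 ± 1.23 to 17.5 ± 1.82 and 17.6 ± 1.99 CPM (log2 fold changes 1.77 and 1.78, edgeR adjusted p = 6.69e-07 and 7.14e-07). DDIT3, which encodes CHOP, rose by 1.69 in erastin-R (edgeR adjusted p = 7.33e-08) and by 2.15 in RSL3-R cells (edgeR adjusted p = 6.07e-09). EGR1 rose by 1.55 in erastin-R (edgeR adjusted p = 2.11e-09) and by 1.82 in RSL3-R cells (edgeR adjusted p = 3.35e-10). TP73, at 41 to 51 counts in vehicle libraries, fell by 2.35 in erastin-R cells, to 6 to 12 counts (edgeR adjusted p = 1.90e-05), and by 1.68 in RSL3-R cells, to 12 to 18 counts (edgeR adjusted p = 0.000219). The erastin-R values of DDIT3 and EGR1 and the RSL3-R value of TP73 go beyond the limit of 4 genes and were added after their values were seen, so that both resistant groups are given. In all, 5 genes of this list were differentially expressed and higher and 2 lower in erastin-R cells, and 4 and 2 in RSL3-R cells. TP63 fell in erastin-R cells on 1 to 5 counts against 6 to 18 in vehicle (log2 fold change -2.13, SE 0.67, edgeR adjusted p = 0.0153). It passed the filter on low counts only through vehicle and RSL3-R libraries, so its calls against erastin-R cells are not independent of that filter. Between RSL3-R and erastin-R cells 6 were higher and 6 lower (median 0.03), with TP63 at 1.95 (8 to 10 counts in RSL3-R libraries) and TRIB3 at 1.08. Without erastin-R replicate 1, 5 were higher and 6 lower, and no gene of this list was differentially expressed between the resistant groups.

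The last list held 14 kinases, ubiquitin ligases, deubiquitinases and dynein light chains that act on BCL2 family proteins. In erastin-R cells 5 were higher and 4 lower than vehicle, with or without replicate 1 (median log2 fold change 0.11). PIM1 and PIM3, kinases that phosphorylate the BH3-only protein BAD, were the differentially expressed ones. PIM1 rose from 74.0 ± 3.03 to 258 ± 17.6 CPM (log2 fold change 1.80, SE 0.07, edgeR adjusted p = 4.20e-10) and PIM3 from 73.1 ± 4.37 to 179 ± 48.0 CPM (1.29, SE 0.15, edgeR adjusted p = 5.74e-06). In RSL3-R cells 5 were higher and 5 lower (median 0.17), or 7 and 5 without the erastin-R library, and none was differentially expressed. RSL3-R against erastin-R cells gave 2 higher and 7 lower either way (median -0.17), with PIM1 at -1.58 (edgeR adjusted p = 1.95e-09) and PIM3 at -1.07 (edgeR adjusted p = 4.19e-05). Like MCL1, both PIM genes were thus at their highest in erastin-R cells.

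**Figure D4:**
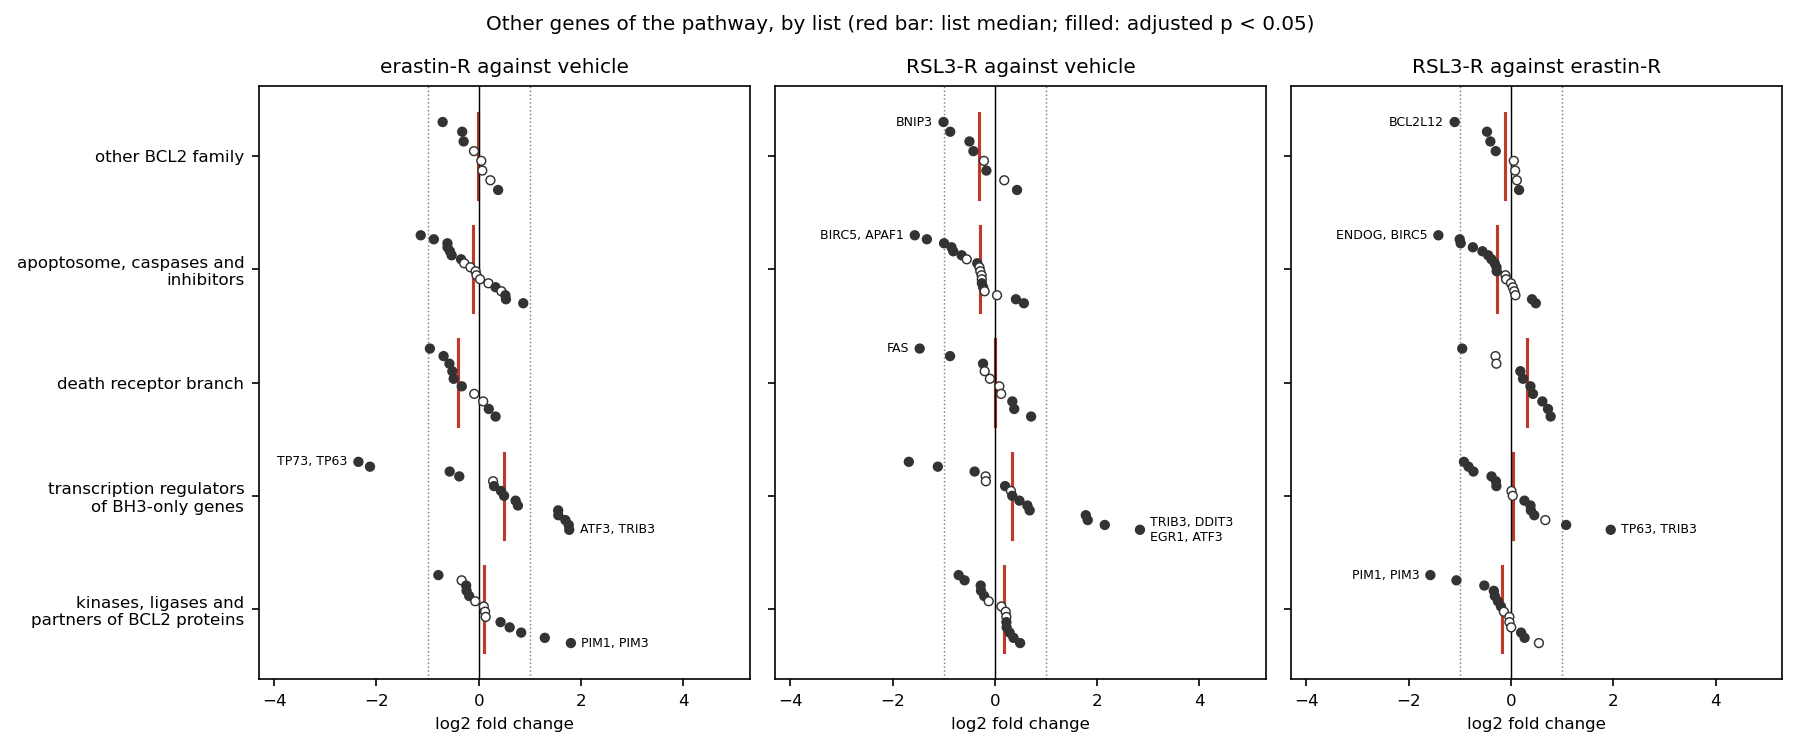
Log2 fold change (horizontal axis) of each tested gene of 5 lists in the 3 comparisons, with a red bar at the list's median, filled points at an edgeR adjusted p under 0.05 and dotted lines at 1 either way. Names stand beside the largest changes that the text describes, up to 4 for a list, with TRIB3 at 2.84 in RSL3-R cells the highest and TP73 at -2.35 in erastin-R cells the lowest.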

How the data were processed

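RNA-seq of 9 MDA-MB-231 libraries was analysed, 3 each of vehicle, erastin-R and RSL3-R cells, grouped by the treatment in the labels. Libraries were prepared from poly(A) RNA. The submitters' processing notes name HISAT2 2.0.5 and featureCounts 1.5.0-p3, and the methods describe uniquely mapped reads in exons. The strand setting was not given in the sources used here. The authors deposited raw counts per gene and FPKM values made from the same counts. A mean FPKM of at least 1 served as an alternative filter. Gene IDs and positions matched GENCODE 29 on GRCh38 for 58724 of 58735 genes.

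Tests on the counts were made with edgeR 4.0.16 in R 4.3.3 (filterByExpr, TMM, quasi-likelihood test, 1 model of all 9 libraries without covariates). Adjusted p values are Benjamini-Hochberg values over the 16188 genes tested, and a gene with a log2 fold change of at least 1 in size and an adjusted p under 0.05 was taken as differentially expressed. Standard errors came from the log2 fold change and its F statistic, and intervals are 95%. Alternatives were no filter on low counts, the FPKM filter, median-ratio size factors, DESeq2 1.42.0, quantile normalization with limma 3.58.1, only the 2 groups compared, a replicate block, each library left out in turn, and an unadjusted p. The tests were tried on simulated counts first. Total counts of 15405102 to 17273464 set the precision, and 3 counts was taken as the floor, which covers counting error only. Promoters were RefSeq windows of GRCh38.p14. Matplotlib 3.10.9 under Python 3.11.15 drew the figures.

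The members and gene lists were chosen with earlier results of these data known. All 10 members are named, and of the other lists the differentially expressed genes, at most 4 per list and comparison by size, with the values stated above added after they were seen. MARCHF5 was matched by gene ID, since its symbol is altered in the files. Of the 2 entries of DIABLO, the one with the higher total count was used. Some results of single genes and of 1 list are not reported here.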

Additional observations from a re-analysis of the deposited data

How the results depend on the processing

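Over 27 log2 fold changes of the members, 417 values under alternative settings kept their side of the threshold, 22 fell short of it, 20 newly passed it, and the direction of a called gene reversed in 0. Not all of these values are separate checks. The unadjusted p reused the main fit, and some of the libraries left out belonged to neither group compared. BBC3, PMAIP1 and BMF against vehicle in both resistant groups, MCL1 in erastin-R cells, BAK1 in RSL3-R cells, and MCL1, BAK1 and BMF between the resistant groups passed in all 16 settings with an adjusted p. The differentially expressed members in erastin-R against vehicle numbered 2, and 1 with quantile normalization and limma, and from 1 to 2 with each library left out. For RSL3-R against vehicle they also numbered 1 to 2 with each library left out. BMF was the member lost each time. Members past the test in RSL3-R against vehicle numbered 4 to 8 with a library left out, against 7, and the count of 4 came without vehicle replicate 2, when BCL2, BAX and MCL1 fell short. Members past the test between RSL3-R and erastin-R cells numbered 7 on the unadjusted p, against 4, and 3 to 6 with a library left out. Without erastin-R replicate 1, 6 members passed in erastin-R against vehicle. With a mean FPKM of at least 1, fewer genes were tested, and 1255 were differentially expressed in erastin-R against vehicle (2162 without it), 996 in RSL3-R against vehicle (1635) and 871 between RSL3-R and erastin-R (1674). Quantile normalization gave 857 genes higher and 695 lower between RSL3-R and erastin-R, against 1111 and 563, and the cause was not tested. Replicate numbers were shared between conditions, but same-numbered libraries did not deviate together (correlations of residuals from -0.0806 to 0.0509 over 9 pairs). A replicate block left 4, 6 and 5 members past the test in the 3 comparisons (4, 7 and 4 without it). It changed the call of 2 of 27 member results, BCL2 in RSL3-R against vehicle (edgeR adjusted p = 0.0569) and BBC3 between the resistant groups (edgeR adjusted p = 0.0441).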
